A study of Mus musculus with 16 samples.

Results

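Sorted mesenchymal stem cells (MSCs) of 4 miR-9-1-deficient mice were compared with those of 4 wild-type mice, 8 of the 16 libraries in the series, and the other 8 came from sorted osteoblasts. Genes were taken into the comparison when their normalized count was 10 or more in at least 4 of the 8 MSC libraries, which held for 14964 of 20056 gene symbols. The deficient mice carried a CRISPR/Cas9 edit of the microRNA locus Mir9-1, and the controls were wild-type mice without a further allele or treatment in the labels. The labels name neither the edited bases, the sort gate, the sex nor the age, and they give 1 animal number per library. The study's interest was in how the marrow niche of developing lymphocytes depends on this locus. Poly(A) RNA was sequenced. The wild-type mice are called A, B, C and D and the deficient mice E, F, G and H, in label order.

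MicroRNAs guide Argonaute proteins to messenger RNAs, mostly through a match between the bases of the microRNA's seed and the 3′ UTR, and a matched transcript is translated less and degraded sooner. miR-9 is best known from the developing brain, where it restrains progenitor genes. MSCs of the marrow are stromal cells that can form bone, cartilage and fat, make most of the marrow's collagen, and secrete factors on which blood cell progenitors depend. In a bulk library of sorted cells, a lower value can come from fewer cells of a type or from less RNA per cell, and these cannot be told apart.

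Mature miR-9-5p is the same molecule whichever of its genomic loci it comes from, and it is shown because the seed decides which transcripts could carry its sites. RefSeq (GRCm38.p6) places the copy of the edited locus at chr3:88215613-88215635 on the plus strand, with further copies at the Mir9-3 and Mir9-2 loci. Bases 2 to 8, the seed, are in capitals.
miR-9-5p (Mir9-1): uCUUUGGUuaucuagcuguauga
miR-9-5p (Mir9-3): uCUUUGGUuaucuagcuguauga
miR-9-5p (Mir9-2): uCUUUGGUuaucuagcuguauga
All 8 MSC libraries held 0 reads of Mir9-1. A count of 0 allows up to 3 reads, or 3.52 to 4.51 normalized counts (counting error only), so these poly(A) libraries could not show whether the locus was lost, and mature microRNAs were not measured. The genes around the locus were looked at as well, although their levels do not show whether it was lost. Within 1000000 bases of Mir9-1 on either side, 53 genes were tested, and 0 passed as higher and 2 as lower. Of all genes tested 0.501% passed as higher and 0.561% as lower. The 2 were the near-identical osteocalcin genes Bglap and Bglap2, which can share reads. The median log2 fold change of the 53 genes was -0.04.

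The MSC libraries held 10148197 to 14246986 reads. The Y-linked gene Ddx3y stood at 1848 to 3355 normalized counts in A, E and F and at 29.8 to 78.1 in B, C, D, G and H, and the X-inactivation transcript Xist ran the other way, at 291 to 392 against 11937 to 14158. Libraries with the high Y-linked level thus made up 1 of the 4 wild-type and 2 of the 4 deficient libraries. G and H also held reads of skeletal muscle genes. Relative to the wild-type mean, the mean log2 level of 14 such genes was 1.82 for G and 3.46 for H. It was -0.44 for E, 0.44 for F and between -0.50 and 0.39 for the wild-type libraries.

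At an adjusted p under 0.05 (limma, Benjamini-Hochberg over all genes tested), 159 genes passed (1.06%), 75 higher (0.501%) and 84 lower (0.561%) in deficient MSCs. At an unadjusted p under 0.05 there were 1601 higher genes (10.7%) and 1804 lower genes (12.1%). The groups did not overlap, with every deficient library above or below every wild-type library, for 942 genes in the higher direction (6.30%) and 913 in the lower (6.10%). The median log2 fold change of all genes was -0.03. All log2 fold changes are of log2(normalized count + 1), deficient minus wild-type, which understates the change of low genes.

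The count of calls rested on single libraries. Without deficient mouse F 2261 of 14775 genes tested passed, 1040 higher and 1221 lower. Among them were all 158 of the 159 calls that were tested there. F lay closest to the wild-type libraries in most of the programs described here. Counts of list genes called without F are to be read beside these numbers and not beside the 159 calls. Without wild-type mouse A, B, C or D the count was 12, 0, 6 or 1, and without deficient mouse E, G or H it was 11, 1 or 2. Without both G and H, the libraries with muscle reads, 0 genes passed by limma and 1942 had an unadjusted p under 0.05. G and H are also the deficient libraries with the high Xist level, and their animal numbers belong to other series than those of E and F. Leaving them out removes all of these together, so that fit cannot tell muscle reads, Xist level and series apart. With the series of animal numbers as a covariate 8 passed. With the Xist level as a covariate, an alternative chosen after the data were seen, 51 genes passed, 46 of them also without it. Every one of the 159 genes, where tested, kept its direction in each of these fits. They were selected in these same libraries, so a change of sign was unlikely from the start. On recovered reads edgeR and DESeq2 called 147 and 1199 genes.

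The genes were grouped into 84 lists, 70 of them pathways or transcription programs and 13 of cell type markers, and 1610 genes of the lists were tested. Of the 159 called genes, 50 were in a program list and 103 in none. A gene can be in several lists, so the lists are not independent of each other. For each list the counts of called genes and the median log2 fold change are given, beside the shares of all genes above.

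**Figure D1:**
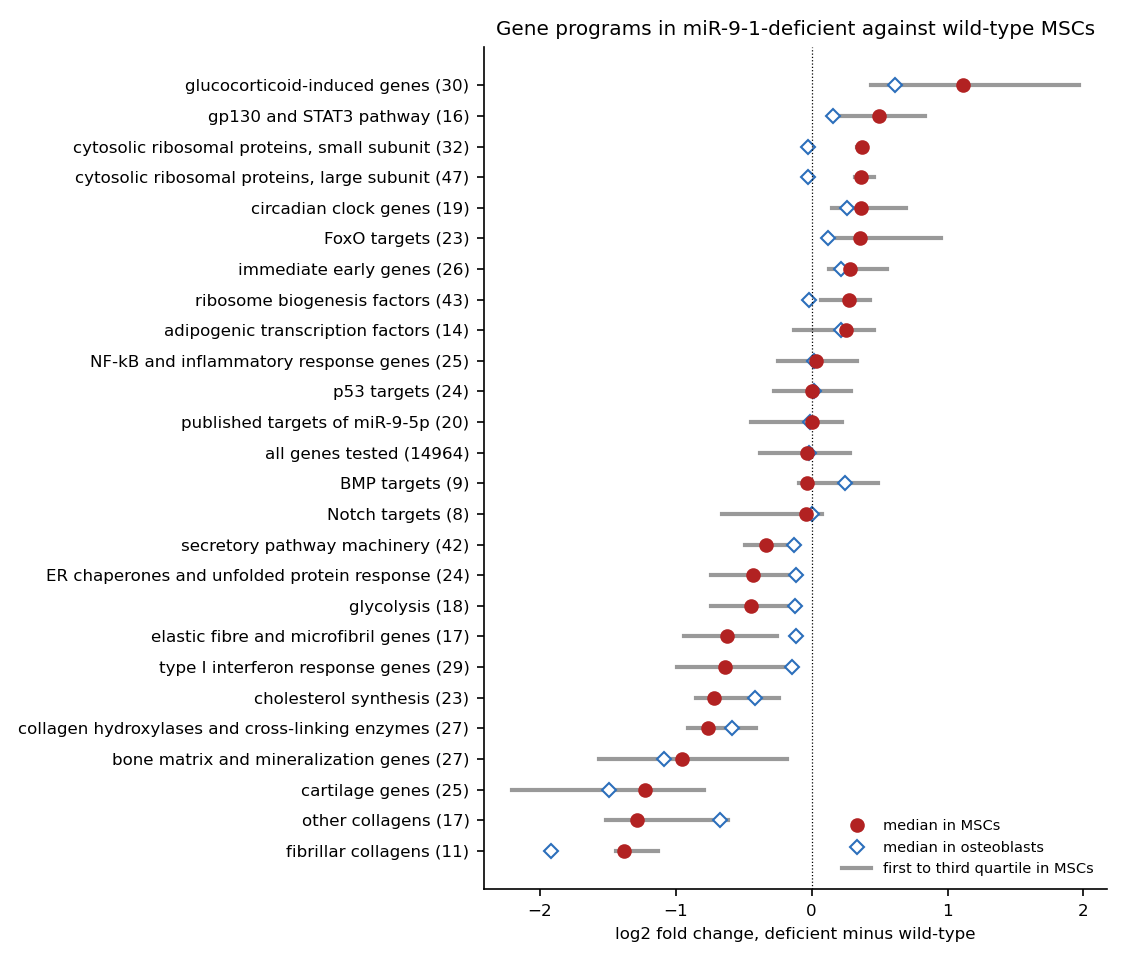
Median log2 fold change (x axis) of 26 gene lists (y axis, number of genes tested in brackets) in MSCs (red circles, grey bars from the first to the third quartile) and in osteoblast libraries (blue diamonds). Medians run from -1.38 for the fibrillar collagens to 1.11 for the glucocorticoid-induced genes, with all genes tested at -0.03.

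Genes that glucocorticoid hormones induce were the list with the most calls in the higher direction. Of 30 such genes, 9 rose and 0 fell, 17 had groups that did not overlap, all in the higher direction, and the median log2 fold change was 1.11. Glucocorticoids enter the cell and bind the glucocorticoid receptor, which moves to the nucleus and acts on genes near its response elements. The list counted 22 higher genes at an unadjusted p under 0.05 and 0 lower ones.

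Fkbp5, which encodes an immunophilin that holds the receptor in its low-affinity state (chromosome 17, 28399094 to 28517527, minus strand, GRCm38), stood at 608, 456, 382 and 374 normalized counts in A to D. In E to H it stood at 8135, 1616, 1914 and 3935. Each deficient library was above every wild-type library, and E was highest. The log2 fold change was 2.82 ± 0.42 (SE, adjusted p = 0.0253, limma).

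Zbtb16, a zinc finger transcription factor also known as PLZF (chromosome 9, 48654297 to 48836222, minus strand), was at 387, 145, 201 and 213 in A to D and at 4384, 530, 1612 and 2772 in E to H. It rose by 3.01 ± 0.54 (adjusted p = 0.0373). The Krüppel-like factor Klf15 (chromosome 6, 90462576 to 90475238, plus strand) was at 84.6, 59.6, 112 and 48.1 in wild-type and at 2929, 197, 983 and 1194 in deficient libraries, a log2 fold change of 3.63 ± 0.64 (adjusted p = 0.0363). In both genes the groups were apart and mouse F was the lowest of the deficient mice.

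The acute-phase protease inhibitor Serpina3n was at 651, 458, 173 and 571 in A to D and at 6388, 1727, 1737 and 3730 in E to H (2.81 ± 0.47, adjusted p = 0.0286). The kinase gene Map3k6 was at 687, 511, 532 and 571 against 3862, 1184, 1922 and 3435 (2.03 ± 0.32, adjusted p = 0.0263). In these genes E and H were the highest libraries. The metallothionein Mt1, which binds zinc and other metals, was at 4497, 2866, 2620 and 1906 against 17473, 7592, 9542 and 10306 (1.92 ± 0.29, adjusted p = 0.0253). Cebpd, a factor that acts early in fat cell formation, was at 3998, 2962, 3965 and 2849 against 13761, 5313, 8914 and 11636 (1.46 ± 0.26, adjusted p = 0.0373). The remaining called genes of the list fall outside the naming rule and are given because they complete the count. They were Mt2 (1.98 ± 0.34, adjusted p = 0.0313) and Tsc22d3, which encodes the leucine zipper protein GILZ (1.39 ± 0.29, adjusted p = 0.0469).

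**Figure D2:**
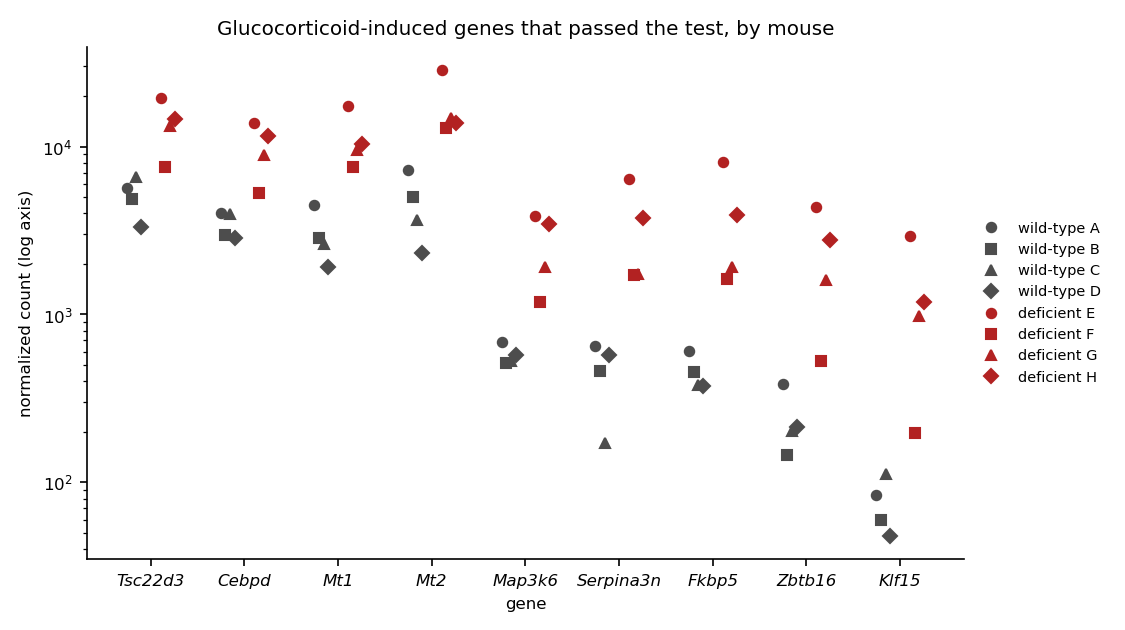
Normalized count (log axis) of the 9 glucocorticoid-induced genes that passed the test (x axis), with 1 point per library, grey for wild-type and red for deficient mice. In each of the 9 genes the red points lie above all grey points, and F is the lowest red point in all 9.

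The list as a whole had a mean log2 level of 1.86 in E, 0.63 in F, 1.19 in G and 1.42 in H relative to the wild-type mean, with the wild-type libraries between -0.16 and 0.17. Each deficient mouse was thus above each wild-type mouse, with F nearest to them. Without F 22 of the 30 genes passed, beside 1040 of all 14775 genes in the higher direction. DESeq2 called 21 of the list and 689 of all 14964 genes as higher, and without A or E the list count was 2 or 1. Without B, C, D, G or H, and without both G and H, it was 0. The median stayed between 0.89 and 1.53 in all these fits, the highest of them with the level of B-lineage genes as a covariate.

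Response elements were searched in the 300-base promoter windows of RefSeq (250 bases before to 50 after the start, GRCm38.p6). The letters GNACANNNTGTNC, which read the same on both strands, occurred in 0.475% of 32851 promoters and in 50 of the 11023 tested genes with a window (0.454%). They occurred in 5 of 57 called higher genes and 0 of 57 called lower genes with a window, and in 4 of 25 genes of the list. The share in the list describes the genes chosen for it and not the difference between the genotypes. Map3k6, Mt1 and Serpina3n are counted both in the list and among the called genes. The 5 windows are shown because their genes are those that both hold the letters and rose. The match is in capitals, and a match is a description of the sequence and not of binding.
Txnip (chr3:96557761-96557821, plus strand): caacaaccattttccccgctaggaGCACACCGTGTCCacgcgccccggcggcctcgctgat
Map3k6 (chr4:133240613-133240673, plus strand): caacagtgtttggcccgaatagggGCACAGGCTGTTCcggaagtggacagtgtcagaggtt
Slc10a6 (chr5:103629530-103629590, minus strand): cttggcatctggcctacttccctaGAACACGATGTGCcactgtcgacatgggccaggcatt
Mt1 (chr8:94178971-94179031, plus strand): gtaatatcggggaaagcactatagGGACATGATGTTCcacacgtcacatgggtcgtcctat
Serpina3n (chr12:104406606-104406666, plus strand): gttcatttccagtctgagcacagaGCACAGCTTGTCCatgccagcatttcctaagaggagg
Slc10a6, a transporter of sulfated steroids that is in none of the lists, was at 63.8, 41.4, 66.2 and 21.0 in A to D and at 1593, 175, 631 and 1061 in E to H (3.87 ± 0.61, adjusted p = 0.0265). The groups did not overlap.

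The receptor and its partners gave no call. Of 18 genes for the receptor, its chaperones and its cofactors, 0 passed in either direction by limma, 4 were higher and 2 lower at an unadjusted p under 0.05, and the median was 0.10. The receptor gene Nr3c1 was at 3490, 3400, 3331 and 3401 in A to D and at 2324, 3335, 3671 and 2386 in E to H (-0.25 ± 0.16, adjusted p = 0.383). E and H, the highest libraries for the induced genes, were the lowest for Nr3c1, and the groups overlapped. The coactivator Ncoa3 was at 2477 to 2739 in wild-type and 3200 to 4712 in deficient libraries (0.61 ± 0.14, adjusted p = 0.0608), and the co-chaperone Fkbp4 at 1178 to 1429 and 725 to 1168 (-0.58 ± 0.17, adjusted p = 0.0911).

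Among circadian clock genes, a transcription loop in which Clock and Arntl drive the Period and Cryptochrome genes that then repress them, 1 of 19 rose and 0 fell (median 0.36). Per2 was at 409, 645, 810 and 729 in A to D and at 1937, 1147, 1472 and 1387 in E to H (1.21 ± 0.22, adjusted p = 0.0373), and the groups were apart. Cry2 did not pass (0.69 ± 0.18, adjusted p = 0.0811), nor did Arntl (0.44 ± 0.19), Clock (0.19 ± 0.14) or Nr1d1 (0.14 ± 0.18). Dbp, an output gene of the loop, had the opposite sign (-0.92 ± 0.26, adjusted p = 0.0921), with wild-type values of 857 to 2024 and deficient values of 511 to 954 that overlapped. The letters CACGTG, known as the E-box, occurred in 5 of 16 promoter windows of the list and in 11.3% of those of tested genes. They were in 8 of 57 called higher and 6 of 57 called lower genes. The share in the list describes the genes chosen for it. Hours of collection are not in the labels.

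FoxO factors are held out of the nucleus by insulin and growth factor signals and otherwise activate stress and fasting genes. Of 23 FoxO targets 1 rose and 0 fell, 11 were higher and 1 lower at an unadjusted p under 0.05, and the median was 0.35. Txnip, an arrestin-like protein that limits glucose uptake (chromosome 3, 96557957 to 96561883, plus strand), was at 6283, 6069, 6436 and 3697 in A to D and at 31425, 10708, 28690 and 31521 in E to H (2.10 ± 0.33, adjusted p = 0.0268). E, G and H lay close together, F stood well below them, and all were above the wild-type libraries. The antisense gene Gm15441 overlaps Txnip, and without a stated strand setting their reads cannot be told apart. Of the 4 factor genes 0 passed by limma and 1 had an unadjusted p under 0.05. Foxo3, itself on a list of published miR-9 targets, was at 1192, 1150, 1045 and 1337 against 2572, 1525, 1830 and 2436 (0.80 ± 0.18, adjusted p = 0.0555), and the receptor gene Igf1r at 2611 to 3151 against 3732 to 5759 (0.74 ± 0.16, adjusted p = 0.0516). Foxo1 (0.20 ± 0.21) and Foxo4 (0.10 ± 0.13) differed by about their standard error. Sesn1, a target of p53 and of FoxO factors, was at 815 to 1056 in wild-type libraries and at 8547, 1057, 2265 and 3704 in E to H (1.75 ± 0.48, adjusted p = 0.0857), where F was level with B.

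Of 16 genes of the gp130 and STAT3 pathway, which carries signals of the interleukin-6 family, 0 passed by limma, 9 were higher and 2 lower at an unadjusted p under 0.05, and the median was 0.50. Il6ra, the receptor for interleukin-6, was at 289, 417, 359 and 210 in A to D and at 2627, 452, 790 and 1309 in E to H (1.77 ± 0.44, adjusted p = 0.0718). The feedback inhibitor Socs3 was at 14391 to 19096 and 23488 to 44618 (0.83 ± 0.22, adjusted p = 0.0802). In both genes the groups did not overlap. Without F 8 genes of the pathway passed as higher and 1 as lower, beside 1040 and 1221 of all 14775 genes. With edgeR, and without G and H, 0 passed.

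Among 14 transcription factors of fat cell formation 2 rose and 0 fell (median 0.25). The 2 were Klf15 and Cebpd, which are also among the glucocorticoid-induced genes counted above. Pparg, the factor that commits cells to fat, was low and scattered, at 45.8, 15.5, 181 and 87.2 in A to D and 95.1, 91.5, 105 and 149 in E to H (0.88 ± 0.61, adjusted p = 0.411). Cebpa (-0.20 ± 0.22) and Cebpb (0.43 ± 0.16, adjusted p = 0.152) did not pass. Of 19 fat storage and adipocyte genes 0 passed by limma and 3 were higher and 1 lower at an unadjusted p under 0.05 (median 0.16). The desaturase Scd2 was at 3620 to 5562 in wild-type libraries and at 1923, 3947, 1882 and 1676 in E to H (-0.94 ± 0.25, adjusted p = 0.0811), with F inside the wild-type range, and Apoe was at 3006 to 5933 against 5035 to 8377 (0.69 ± 0.24, adjusted p = 0.133).

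Ribosomal protein genes lay slightly above their wild-type levels in most members. Of 47 genes of the large subunit 33 had groups apart, all in the higher direction, and 38 had an unadjusted p under 0.05, while 1 passed, with a median of 0.36. Of 32 genes of the small subunit 24 were apart, 25 had an unadjusted p under 0.05 and 1 passed, with a median of 0.37. In both lists 0 genes fell and 0 were apart in the lower direction. Background shares in the higher direction were 0.501% for calls, 6.30% for groups apart and 10.7% for an unadjusted p under 0.05.

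Rpl37a was at 1833, 1991, 2084 and 1823 in A to D and at 3125, 2637, 2878 and 2819 in E to H (0.57 ± 0.11, adjusted p = 0.0455). Rps27 was at 2989, 3141, 2819 and 2912 against 5562, 3637, 5440 and 5271 (0.73 ± 0.15, adjusted p = 0.0495), and its near-identical copy Rps27rt can share reads with it. The mean log2 level of the small-subunit genes relative to wild-type was 0.50 in E, 0.21 in F, 0.42 in G and 0.35 in H. It lay between -0.02 and 0.06 in the wild-type libraries. The shift was thus present in every deficient mouse. Without F 24 large-subunit and 20 small-subunit genes passed, beside 1040 of all 14775 genes in the higher direction. Without any other single library 0 of either passed. In the osteoblast libraries the medians were -0.02 and -0.03. Mitochondrial ribosomal proteins, 77 genes, had a median of -0.12, with 6 higher and 7 lower at an unadjusted p under 0.05 and 0 calls by limma.

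The growth factor-responsive transcription factor Myc, which drives ribosome production (chromosome 15, 61985391 to 61990374, plus strand), was at 3404, 3644, 2776 and 2319 in A to D and at 8204, 5500, 6259 and 5764 in E to H. It rose by 1.09 ± 0.18 (adjusted p = 0.027), with every deficient library above every wild-type library. Of 43 factors that assemble ribosomes 2 rose and 0 fell, 13 were apart in the higher and 1 in the lower direction, and the median was 0.28. Nop14 was at 527, 722, 566 and 592 against 1019, 987, 1144 and 1105 (0.83 ± 0.14, adjusted p = 0.0286). Nop58, a core protein of the small nucleolar particles that methylate ribosomal RNA, was at 1857, 1875, 1681 and 2075 against 3412, 2643, 3465 and 5053 (0.92 ± 0.18, adjusted p = 0.041). Both lists of ribosomal genes and the assembly factors kept their sign in all alternatives. Of 35 translation factors 0 passed by limma and 9 were higher and 0 lower at an unadjusted p under 0.05 (median 0.18), Eif1a among them (0.56 ± 0.17, adjusted p = 0.101).

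Of 26 immediate early genes, which respond within minutes to growth factors or to handling of cells, 1 rose, Myc itself, and 11 were apart in the higher direction and 0 in the lower (median 0.28). Egr2 was at 1312 to 1517 in wild-type and 1883 to 2267 in deficient libraries (0.51 ± 0.12, adjusted p = 0.0608). Cirbp, an RNA-binding protein named for its induction by cold (chromosome 10, 80165985 to 80172786, plus strand), was at 1132, 704, 925 and 679 in A to D and at 1817, 1713, 1940 and 1658 in E to H (1.08 ± 0.17, adjusted p = 0.0268), and Rbm3 was at 1725 to 2033 against 2180 to 2529 (0.37 ± 0.12, adjusted p = 0.11). The levels of Cirbp were even across the deficient mice, F included.

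The fibrillar collagens had the lowest median of the program lists. Of 11 fibrillar collagens, the proteins of the load-bearing fibres, all 11 were lower at an unadjusted p under 0.05 (background 12.1%), 9 were apart (background 6.10%) and 0 passed the adjusted threshold by limma, with a median of -1.38. Without F 9 passed as lower, beside 1221 of all 14775 genes, and DESeq2 called 8, beside 510 of 14964. With edgeR, with TMM scaling, and without G and H, 0 passed. Col1a1, which the naming rule does not take and which is given as the subunit gene of the main bone collagen, was at 813054, 605489, 604933 and 765769 in A to D and at 202910, 402536, 399772 and 150990 in E to H (-1.38 ± 0.54, adjusted p = 0.165). Col11a1 was at 30216, 27658, 23590 and 49807 against 8378, 20108, 11763 and 9388 (-1.43 ± 0.30, adjusted p = 0.0517). Col11a2 (chromosome 17, 34039437 to 34066685, plus strand) was at 5775, 6721, 7458 and 28523 against 882, 2581, 3082 and 2632 (-2.20 ± 0.50, adjusted p = 0.0608). In all of these the groups were apart, and D was the highest library for Col11a1 and Col11a2. The mean log2 level of the list relative to wild-type was -2.25 in E, -0.79 in F, -1.01 in G and -1.74 in H, while wild-type libraries lay between -0.27 and 0.55.

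Of 17 other collagens 1 fell and 9 were lower at an unadjusted p under 0.05 (median -1.28). Col8a1, a short-chain collagen (chromosome 16, 57624258 to 57754737, minus strand), was at 9161, 10518, 15460 and 16899 in A to D and at 3652, 5757, 3821 and 3200 in E to H (-1.65 ± 0.23, adjusted p = 0.0253). Col15a1, a collagen of basement membrane zones, was at 17661, 12281, 10966 and 21216 against 561, 7578, 2106 and 1382 (-2.997 ± 0.603, adjusted p = 0.044). It was the 1 called gene among 23 basement membrane genes, whose median was -0.02.

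Enzymes that hydroxylate, trim and cross-link collagen also had a median below 0. Of 27 such genes 3 fell and 0 rose, 19 were lower and 1 higher at an unadjusted p under 0.05, and the median was -0.76. Loxl2, a lysyl oxidase that cross-links fibres, was at 8788, 6355, 6881 and 8175 in A to D and at 2216, 4847, 3625 and 1958 in E to H (-1.34 ± 0.26, adjusted p = 0.041). Bmp1, the procollagen C-proteinase, was at 7171, 6995, 6503 and 7316 against 4029, 4498, 3871 and 2727 (-0.91 ± 0.16, adjusted p = 0.0348). Adamts2, the procollagen N-proteinase, was at 10482 to 13384 against 4354 to 7154 (-0.90 ± 0.18, adjusted p = 0.0426). The groups were apart in these genes. The collagen chaperone Serpinh1, given here outside the naming rule, was at 27159, 28925, 24748 and 28022 against 6026, 21437, 10627 and 5214 (-1.56 ± 0.37, adjusted p = 0.0611), and F was close to the wild-type range. Without F 19 of the 27 genes passed as lower and 1 as higher, beside 1221 and 1040 of all 14775 genes. By edgeR 1 passed, and without G and H 0.

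Elastic fibre and microfibril genes, 17 in all, gave 3 lower and 1 higher call (median -0.62). Mfap4, a microfibril protein, was at 2979, 4959, 5055 and 6932 in A to D and at 1701, 878, 999 and 872 in E to H (-2.16 ± 0.27, adjusted p = 0.0168). Fibrillin-1, Fbn1, was at 16617, 14232, 16391 and 22489 against 5374, 10272, 7602 and 6518 (-1.25 ± 0.22, adjusted p = 0.0321). Ltbp1, which tethers latent TGF-beta to fibrillin, was at 4867 to 6420 against 2383 to 3151 (-1.06 ± 0.14, adjusted p = 0.0253). Fibulin-2, Fbln2, went the other way, at 7474, 5369, 5040 and 5554 against 11487, 8368, 10797 and 10635 (0.82 ± 0.16, adjusted p = 0.0438). Of 16 small leucine-rich proteoglycans 1 fell (median -0.68). Kera, which encodes keratocan (chromosome 10, 97606879 to 97613692, plus strand), was at 2029, 1314, 1894 and 2331 against 59.9, 473, 187 and 32.1 (-4.00 ± 0.65, adjusted p = 0.0269).

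**Figure D3:**
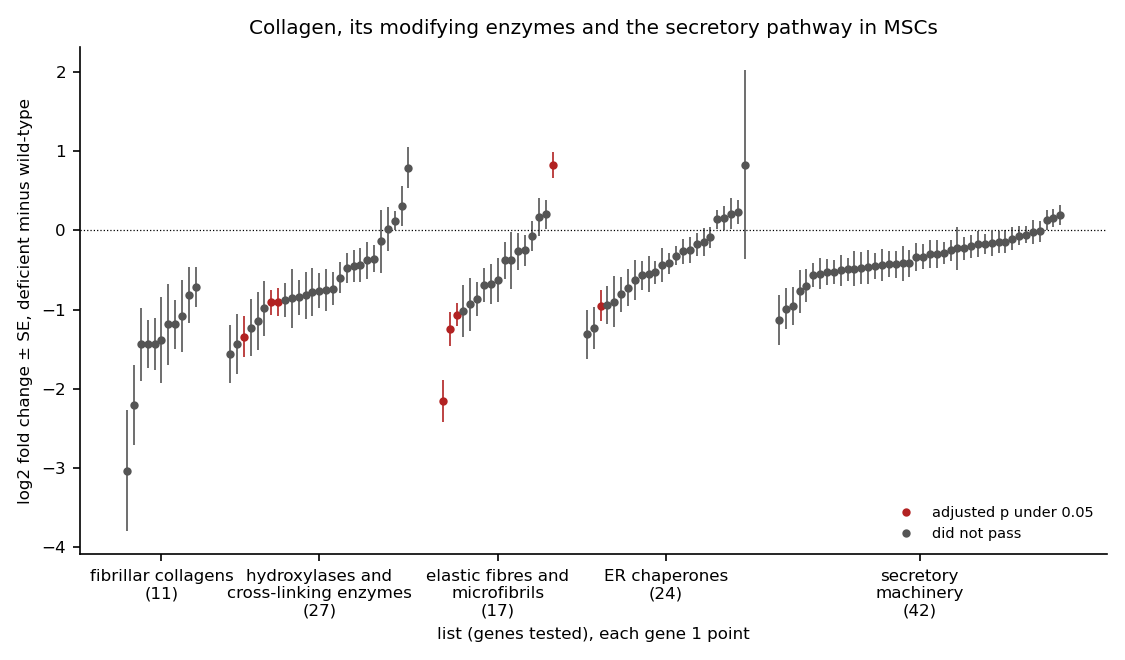
Log2 fold change ± SE (y axis) of each gene tested in 5 lists (x axis, genes ordered within a list), red where the adjusted p was under 0.05. All 11 fibrillar collagens lie below 0, and the lists of enzymes, elastic fibres, chaperones and secretory machinery have medians of -0.76, -0.62, -0.43 and -0.33.

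Genes of the route by which matrix proteins leave the cell had medians closer to 0. Of 24 chaperones and unfolded protein response genes of the endoplasmic reticulum 1 fell, 13 were lower and 0 higher at an unadjusted p under 0.05, and the median was -0.43. Manf, a secreted protein made under reticulum stress, was at 1894, 2288, 2213 and 1895 in A to D and at 974, 1593, 1084 and 776 in E to H (-0.95 ± 0.20, adjusted p = 0.0495). Creld2 was at 937 to 1099 against 311, 812, 401 and 326 (-1.23 ± 0.26, adjusted p = 0.0537). The main chaperone Hspa5 was at 22795 to 26389 against 17343 to 25904 (-0.15 ± 0.18, adjusted p = 0.646), and the stress factor Xbp1 at 2168 to 3152 against 1681 to 2461 (-0.25 ± 0.16, adjusted p = 0.387), so both overlapped. Without F 12 of the 24 genes passed as lower, beside 1221 of all 14775 genes. With edgeR, and without G and H, 0 passed.

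The letters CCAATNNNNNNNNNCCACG, known as an element of reticulum stress genes, occurred on either strand in 9 of 20 promoter windows of that list and in 0.163% of the windows of tested genes. They were in 0 of 57 called higher and 0 of 57 called lower genes with a window. The share in the list thus describes the genes chosen for it and not the difference between the genotypes. The windows of 3 genes are shown because they hold the same letters while their values differed in size of change. Among the genes with the match Derl3 had a log2 fold change above 0 (0.83) and the others had one below 0. Capitals mark the match, which in Creld2 reads in the reverse direction.
Hspa5 (chr2:34772015-34772053, plus strand): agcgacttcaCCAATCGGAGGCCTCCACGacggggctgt
Pdia6 (chr12:17266481-17266519, plus strand): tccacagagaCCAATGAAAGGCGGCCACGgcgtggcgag
Creld2 (chr15:88819510-88819548, plus strand): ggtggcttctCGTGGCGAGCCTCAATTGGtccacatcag
The protein disulfide isomerase Pdia6, chosen after its values were seen, was at 4940, 5087, 5020 and 4528 in A to D and at 2028, 4502, 2566 and 1800 in E to H (-0.94 ± 0.24, adjusted p = 0.0767), between Hspa5 and Creld2 in its log2 fold change.

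Of 42 genes of the secretory machinery, which translocates proteins into the reticulum and carries them to the surface, 0 passed by limma, 19 were lower and 0 higher at an unadjusted p under 0.05, and the median was -0.33. Kdelr2, the receptor that returns reticulum proteins, was at 2055 to 2586 in wild-type and 796, 1990, 1289 and 951 in E to H (-0.96 ± 0.24, adjusted p = 0.0737). Sec61b, a part of the translocation channel, was at 587 to 748 against 203, 504, 410 and 276 (-0.99 ± 0.26, adjusted p = 0.0796). F was the highest deficient library in both. Without it 19 genes of the list passed as lower, beside 1221 of all 14775 genes. With edgeR, and without G and H, 0 passed. Aminoacyl-tRNA synthetases (20 genes, median -0.05, 0 at an unadjusted p under 0.05) showed no such shift.

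Of 27 bone matrix and mineralization genes 6 fell and 0 rose, 13 were apart in the lower and 1 in the higher direction, and the median was -0.95. Phospho1, a phosphatase that starts mineral formation in matrix vesicles (chromosome 11, 95824499 to 95832140, plus strand), was at 944, 848, 624 and 1255 in A to D and at 372, 348, 229 and 247 in E to H (-1.60 ± 0.24, adjusted p = 0.0253). Ostn, the peptide osteocrin, was at 769, 653, 655 and 475 against 41.1, 305, 150 and 68.7 (-2.54 ± 0.50, adjusted p = 0.041). Cpz, a carboxypeptidase, was at 197 to 344 against 44.4 to 97.4 (-2.06 ± 0.33, adjusted p = 0.0268). Bglap2, which can share reads with the near-identical Bglap, was at 1152, 1450, 1152 and 721 against 8.22, 247, 61.4 and 36.5 (-4.50 ± 0.75, adjusted p = 0.0285). Bglap also fell. Smpd3, a sphingomyelinase needed for mineralization that the naming rule does not take, was at 773, 641, 630 and 2242 against 224, 347, 233 and 153 (-1.99 ± 0.39, adjusted p = 0.041). The groups were apart in all 6.

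The transcription factors of the bone lineage gave no call. Of 17 such factors 0 passed by limma, 5 were lower and 1 higher at an unadjusted p under 0.05, and the median was -0.36. Runx2, which commits cells to bone, was at 2405, 2706, 3455 and 2574 in A to D and at 1664, 2585, 2720 and 1816 in E to H (-0.36 ± 0.19, adjusted p = 0.274). Sp7, which acts after Runx2, was at 866, 765, 1042 and 801 against 251, 814, 688 and 311 (-0.91 ± 0.34, adjusted p = 0.147). Both overlapped, with E and H the lowest.

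Of 25 cartilage genes 1 fell, 13 were lower and 0 higher at an unadjusted p under 0.05, and the median was -1.22. This list shares genes with the fibrillar collagens, Col11a1 among them. Cilp2, an abundant cartilage matrix protein, was at 43750, 34751, 26402 and 47075 in A to D and at 4343, 16840, 6787 and 2557 in E to H (-2.63 ± 0.46, adjusted p = 0.0348). The master factor Sox9 was at 2911, 3462, 2280 and 5669 against 2261, 4335, 2980 and 2474 (-0.21 ± 0.27, adjusted p = 0.677), so its groups overlapped. Wild-type libraries also varied in this list: their mean log2 level relative to the wild-type mean ran from -0.59 to 1.16. Among 19 tendon and joint fibroblast genes 1 fell, Kera (median -0.38), and the tendon factor Scx was at 523 to 975 against 108, 726, 314 and 186 (-1.36 ± 0.47, adjusted p = 0.132).

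Signalling lists gave few calls and medians nearer to 0. Of 16 TGF-beta ligands, receptors and Smads 1 fell, Ltbp1 (median -0.12), and the ligand Tgfb3 was at 4741 to 5881 against 3258 to 3815 (-0.58 ± 0.13, adjusted p = 0.055). Of 18 TGF-beta targets 0 passed by limma, with 4 higher and 4 lower at an unadjusted p under 0.05, and the median of -0.26 turned to 0.00 without G and H. Members of that list differed in sign. Nox4, an oxidase, was at 969, 974, 892 and 640 in A to D and at 3834, 1070, 2115 and 3500 in E to H (1.45 ± 0.34, adjusted p = 0.062). Cthrc1, a secreted protein of collagen-making cells, was at 1246 to 1969 against 109, 802, 546 and 221 (-2.25 ± 0.50, adjusted p = 0.0555). Of 16 YAP and TEAD targets 0 passed by limma and 4 were higher and 0 lower at an unadjusted p under 0.05 (median 0.07), among them Ctgf (0.84 ± 0.23, adjusted p = 0.0872).

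Of 12 BMP antagonists 1 rose, Fst, which encodes follistatin, at 833, 742, 697 and 541 in A to D and 1667, 1022, 1918 and 1292 in E to H (1.04 ± 0.21, adjusted p = 0.0427). The list's median of -0.17 was 0.00 without G and H. Of 15 Wnt targets 1 fell, Tnfrsf19, a TNF receptor family member, at 1106, 1173, 1588 and 1202 against 470, 677, 643 and 373 (-1.25 ± 0.20, adjusted p = 0.0269), and the median was -0.06. Of 10 secreted Wnt inhibitors 0 passed by limma and 5 were lower and 1 higher at an unadjusted p under 0.05 (median -0.58). Wif1 was at 3651 to 8874 against 491, 4127, 1289 and 1319 (-1.84 ± 0.52, adjusted p = 0.0891), with F inside the wild-type range, while Sfrp1 was at 219 to 407 against 421 to 622 (0.72 ± 0.21, adjusted p = 0.097). Targets of Notch (8 genes, median -0.04), of BMP (9 genes, median -0.03) and of p53 (24 genes, median 0.00), and genes of the hedgehog pathway (12 genes, median 0.01), gave 0 calls by limma, with 2, 1, 6 and 1 genes at an unadjusted p under 0.05.

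Growth factor genes passed in both directions. In the insulin-like growth factor system, 19 genes, Stc2 rose and Igf1 fell (median 0.13). Stc2, whose product blocks the protease that frees insulin-like growth factors, was at 135, 233, 196 and 170 in A to D and at 968, 467, 501 and 890 in E to H (1.89 ± 0.28, adjusted p = 0.0253). Of 21 imprinted growth genes 2 rose and 0 fell. Peg10 was at 740, 830, 659 and 618 against 1794, 1180, 1707 and 1965 (1.21 ± 0.17, adjusted p = 0.0253), and Dlk1, an inhibitor of fat cell formation, at 280, 240, 371 and 543 against 551, 1476, 1468 and 1165 (1.67 ± 0.33, adjusted p = 0.0438). Their list's median of 0.12 was -0.06 without G and H. Of 26 factors that stromal cells supply to blood progenitors 2 fell (median -0.32), Igf1 and Ptn. Ptn, the heparin-binding factor pleiotrophin, was at 5330, 4180, 4628 and 5221 against 507, 2947, 1510 and 978 (-1.98 ± 0.41, adjusted p = 0.0477). The chemokine Cxcl12, which retains blood stem cells, did not pass, at 13374, 10076, 38088 and 11878 against 8012, 23991, 15933 and 6556 (-0.40 ± 0.47, adjusted p = 0.639).

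In metabolism, of 23 cholesterol synthesis genes 0 passed by limma, 11 were lower and 0 higher at an unadjusted p under 0.05, and the median was -0.72. Srebf2, the factor that activates the pathway when sterols are low, was at 2985, 2998, 3028 and 3665 in A to D and at 1598, 3043, 1668 and 1717 in E to H (-0.71 ± 0.20, adjusted p = 0.0872). F lay within the wild-type range and the other deficient mice lay below it. The mean log2 level of the list relative to wild-type was -0.95 in E, 0.18 in F, -0.74 in G and -0.70 in H. Without F 15 of the 23 genes passed as lower, beside 1221 of all 14775 genes. With edgeR, and without G and H, 0 passed. Mvk, an early enzyme of the pathway, was at 225 to 337 against 129 to 190 (-0.74 ± 0.22, adjusted p = 0.097). The letters ATCACNCCAC, known as the sterol response element, occurred on either strand in 0 of 15 promoter windows of the list. They were in 0.236% of the windows of tested genes.

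Of 18 glycolysis genes 1 fell and 8 were lower and 1 higher at an unadjusted p under 0.05 (median -0.44). Slc16a3, which exports lactate, was at 1568, 1731, 1571 and 1331 in A to D and at 559, 979, 784 and 945 in E to H (-0.95 ± 0.18, adjusted p = 0.0406). Of 22 hypoxia-inducible genes 1 rose and 1 fell (median 0.14), Ndrg1 at 2342 to 3075 against 4410 to 5330 (0.81 ± 0.14, adjusted p = 0.0285) and Loxl2. Respiratory complex I, 37 genes, had a median of -0.23 with 11 lower and 1 higher at an unadjusted p under 0.05 and 0 calls by limma. Gstm1, a glutathione transferase, was the 1 called gene of 25 antioxidant genes, at 1296, 1115, 1125 and 1139 against 2089, 1878, 2505 and 2789 (0.97 ± 0.15, adjusted p = 0.0253), and that list's median was -0.03.

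Among cell cycle and chromatin genes the called genes were Top2a and Ezh1. Of 35 mitosis genes 1 fell and 9 were lower and 0 higher at an unadjusted p under 0.05 (median -0.49). Top2a, the topoisomerase of dividing cells, was at 1055, 1317, 1446 and 1389 in A to D and at 600, 733, 537 and 884 in E to H (-0.93 ± 0.18, adjusted p = 0.0381). H was the highest of the deficient mice for Top2a, and the mean log2 level of the mitosis list relative to wild-type was 0.06 in H, against -0.81, -0.72 and -0.57 in E, F and G. Ezh1, the Polycomb methyltransferase of resting cells, was at 865, 697, 748 and 724 against 1317, 1095, 1310 and 1834 (0.85 ± 0.17, adjusted p = 0.041), 1 of 30 Polycomb and chromatin regulators (median 0.07).

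Interferon response genes had a median below 0 without a call. Of 29 genes 0 passed by limma, 12 were lower and 1 higher at an unadjusted p under 0.05, 9 were apart in the lower direction, and the median was -0.64. The antiviral synthetase Oas2 was at 58.3, 107, 116 and 72.1 in A to D and at 16.4, 37.4, 13.1 and 23.4 in E to H (-1.98 ± 0.46, adjusted p = 0.0608), and Irf7 at 185 to 377 against 75.1 to 178 (-1.03 ± 0.33, adjusted p = 0.116). The groups were apart in both genes. The letters GAAANNGAAA, the core of the interferon-stimulated response element, occurred on either strand in 11 of 19 promoter windows of the list and in 3.64% of the windows of tested genes. They were in 0 of 57 called higher and 1 of 57 called lower genes with a window. The share in the list describes the genes chosen for it and not the difference between the genotypes.

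Of 17 genes of class I antigen processing 1 fell (median -0.34). Psmb9, an immunoproteasome subunit (chromosome 17, 34181987 to 34187764, minus strand), was at 158, 158, 221 and 186 in A to D and at 57.5, 64.4, 57.5 and 52.6 in E to H (-1.61 ± 0.26, adjusted p = 0.0268). All deficient libraries, F included, lay within a narrow range well below the wild-type ones. In the osteoblast libraries Psmb9 was at 628, 593, 686 and 648 in wild-type and at 466, 577, 656 and 710 in deficient mice, where the groups overlapped. The difference of the genotype effects, osteoblasts minus MSCs, was 1.51 ± 0.22 (adjusted p = 0.0423). In this test no gene passed at a pseudocount of 5, or when mouse A, B, C, D, G or H was left out. The constitutive proteasome, 32 genes, had a median of -0.08 with 0 calls by limma and 1 gene at an unadjusted p under 0.05. Class II genes, 9 in all, had a median of -0.94 and 0 calls by limma, with 5 lower at an unadjusted p under 0.05. Their invariant chain gene Cd74 was at 821, 3019, 1912 and 954 against 471, 494, 916 and 671 (-1.25 ± 0.38, adjusted p = 0.105).

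B-lineage genes were at low levels in all MSC libraries and lower in the deficient ones. Of 17 B-lineage genes 4 fell, 14 were lower at an unadjusted p under 0.05, 12 were apart, and the median was -1.67. Vpreb3, of the precursor B cell receptor, was at 81.9, 51.8, 54.0 and 25.5 in A to D and at 0, 0, 3.92 and 2.92 in E to H (adjusted p = 0.041), at or below 3 reads in each deficient library. It was at 10 or more only in the wild-type libraries, so it entered the test through that group alone, and it was not tested when a wild-type library was left out. Spib, a factor of B and plasmacytoid dendritic cells, was at 175, 698, 443 and 258 against 70.4, 36.1, 82.4 and 14.6 (-3.001 ± 0.559, adjusted p = 0.0373). The receptor subunit Cd79b was at 159 to 240 against 42.4 to 87.6 (-1.67 ± 0.30, adjusted p = 0.0373), and Rag1 at 76.4 to 154 against 5.87, 0, 10.5 and 0 (adjusted p = 0.0285). Rag1 reached 10 in every wild-type library and, among the deficient ones, in G alone, so its wild-type values met the filter by themselves. The 4 calls of the list include both Vpreb3 and Rag1. The mean log2 level of the list relative to wild-type was -2.27, -2.66, -1.18 and -2.44 in E to H. The wild-type libraries lay between -0.29 and 0.35, so this level separated the genotypes without overlap, and in a fit with it as a covariate the 2 cannot be told apart. The part of B-lineage cells in the class II values was not tested.

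**Figure D4:**
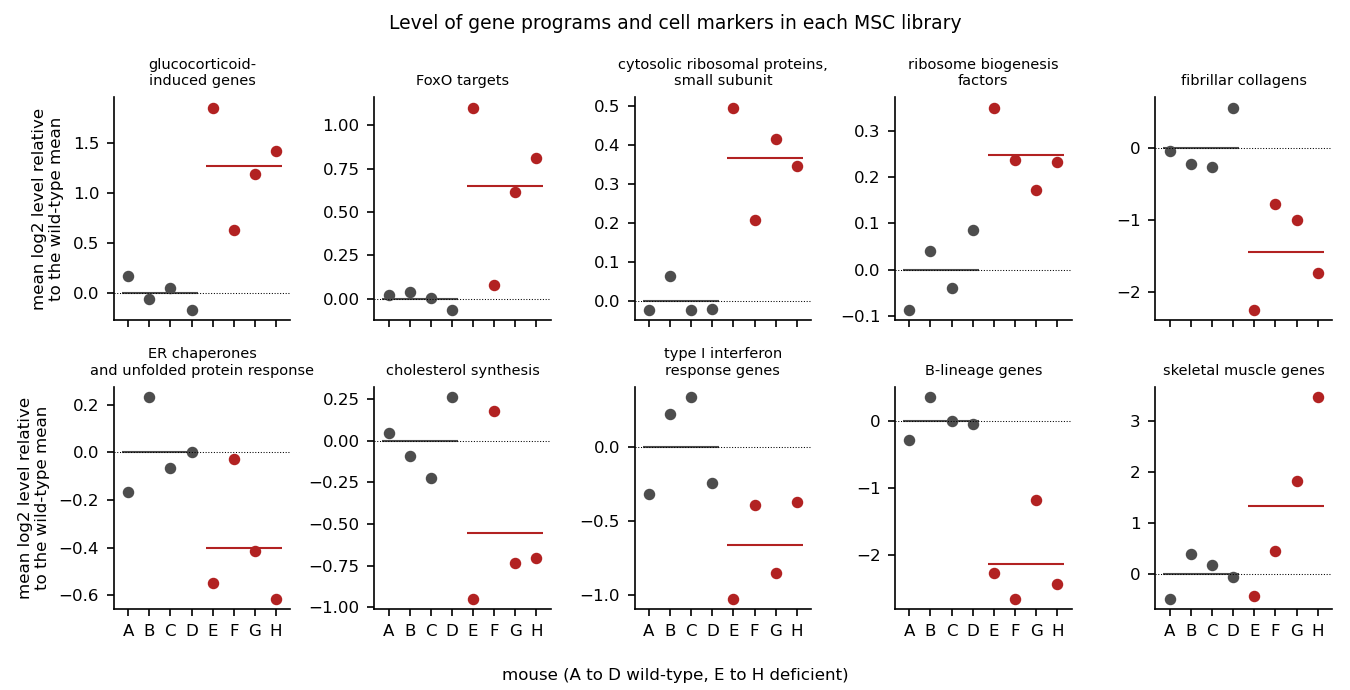
Mean log2 level of the genes of 10 lists (panels, y axis) in each MSC library (x axis, A to D wild-type in grey, E to H deficient in red, lines at the group means), relative to the wild-type mean. Glucocorticoid-induced genes run from 0.63 in F to 1.86 in E, cholesterol synthesis is above 0 only in F among the deficient mice, and muscle genes are high in G (1.82) and H (3.46).

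The markers of the sorted cells themselves differed little as a list. Of 20 MSC stroma markers 1 fell, 3 were lower and 3 higher at an unadjusted p under 0.05, and the median was -0.19. The leptin receptor gene Lepr, a marker of marrow stroma, was at 4586, 4924, 6459 and 3163 in A to D and at 6185, 2965, 3593 and 3633 in E to H (-0.24 ± 0.25, adjusted p = 0.603). Thy1, a surface glycoprotein, was at 1123, 1216, 1392 and 1106 against 162, 545, 433 and 193 (-2.03 ± 0.34, adjusted p = 0.0285), and its groups were far apart. All 8 libraries thus held both transcripts.

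Markers of other cells were also present, and their lists differed in sign. The medians were 0.14 for T and NK cell genes, 0.07 for erythroid, -0.13 for blood progenitor and -0.37 for megakaryocyte and platelet genes. Macrophage and monocyte genes (17, median -0.72), neutrophil genes (17, median -0.55) and endothelial genes (18, median -0.26) gave 0 calls by limma, with 5, 4 and 0 genes lower at an unadjusted p under 0.05, and their wild-type libraries ranged from -0.93 to 0.78, -1.28 to 0.77 and -0.76 to 1.26 around their mean. The osteoclast enzyme gene Acp5 fell, the 1 called of 7 osteoclast genes tested, whose median was -0.16. Acp5 was at 576, 545, 383 and 277 in A to D and 98.6, 88.9, 152 and 247 in E to H (-1.66 ± 0.35, adjusted p = 0.0496). Of 14 skeletal muscle genes 0 passed by limma, 5 were higher at an unadjusted p under 0.05, and the median of 1.28 was -0.46 without G and H. Tnnt3, a troponin of fast fibres, was at 56.9, 110, 122 and 82.7 against 124, 147, 230 and 523 (1.27 ± 0.43, adjusted p = 0.129). With the muscle level as a covariate 0 genes passed by limma and 2803 had an unadjusted p under 0.05. In that fit the median was 1.19 for the glucocorticoid-induced list and -1.19 for the fibrillar collagens, with 0 calls in either. The part of muscle reads in the results was not tested.

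A transcript that loses its microRNA would be relieved of repression, so the genes were also sorted by miR-9-5p seed matches in their 3′ UTR. Of 13466 tested genes with an annotated 3′ UTR, 623 held the 8-base match ACCAAAGA, 2451 a match of 7 bases (ACCAAAG or CCAAAGA) and 10392 none. Their median log2 fold changes were -0.04, -0.03 and -0.04. Among the genes with the 8-base match 3 passed as higher (0.482%) and 6 as lower (0.963%), and among those with none 55 (0.529%) and 57 (0.548%). Of the genes with a match of either length 13 rose and 23 fell. The median UTR length was 2608 bases with the 8-base match and 917.5 without a match, and lengths were not matched here. For miR-9-3p, the other arm of the same hairpin, 607 genes held an 8-base match and had a median of 0.04, against -0.05 for the 10842 genes without a match. Of those 607 genes 1 rose and 1 fell, and of the genes with a match of 8 or 7 bases 13 rose (0.495%) and 20 fell (0.762%), against 0.507% and 0.553% of those without. The median UTR length was again larger with the match, 2918 against 937 bases.

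**Figure D5:**
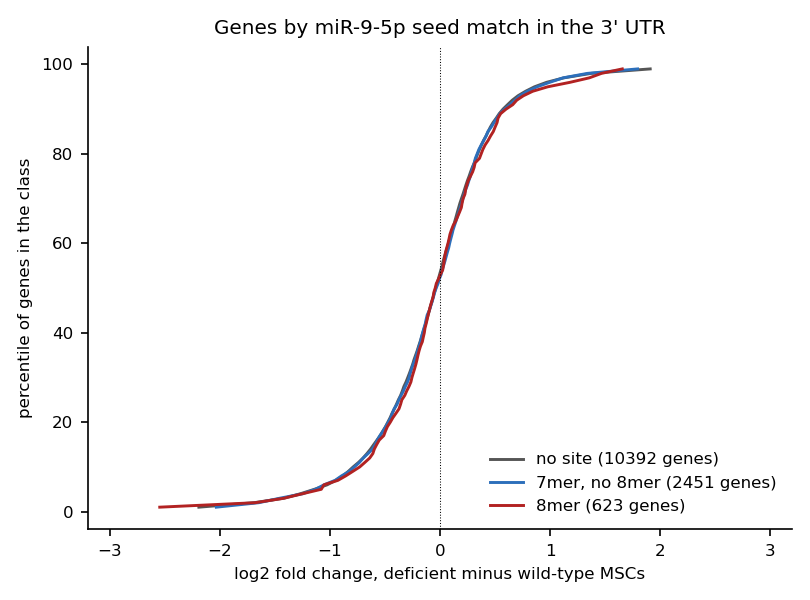
Percentile of genes (y axis) against log2 fold change (x axis) for genes with an 8-base match, with a 7-base match and with no match to the miR-9-5p seed in the 3′ UTR. The curves cross 0 at nearly the same height, with medians of -0.04, -0.03 and -0.04.

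The called genes with the 8-base match are shown with their sites because they are the transcripts on which the seed could bear most directly. Each window has 30 bases of the transcript strand of GRCm38, with the match in capitals. The first 3 genes rose and the other 6 fell.
Ptprg (chr14:12240854-12240883, plus strand): gataccactttACCAAAGAtacacattact
Dlk1 (chr12:109462896-109462925, plus strand): cttccaacgtgACCAAAGAtcaagaaacca
Atg14 (chr14:47542395-47542424, minus strand): tcctactacacACCAAAGAaaccaaattct
Prss35 (chr9:86757893-86757922, plus strand): aaccctgagatACCAAAGAaggttctgatg
Fbn1 (chr2:125300898-125300927, minus strand): tgcttattaagACCAAAGActtgttaaaca
Spock1 (chr13:57427866-57427895, minus strand): ttcatacaagtACCAAAGAgcaatcttcag
Emb (chr13:117273367-117273396, plus strand): atctgtttattACCAAAGAatttattaaag
Ptgfr (chr3:151799749-151799778, minus strand): agacagagtgaACCAAAGAatgggaagaat
Col15a1 (chr4:47312410-47312439, plus strand): tcaaaagagaaACCAAAGAaaacatacctc
Ptprg, a receptor tyrosine phosphatase, was at 1446, 1251, 1543 and 1521 in A to D and at 3047, 2065, 2369 and 2234 in E to H (0.74 ± 0.15, adjusted p = 0.041). Atg14, which starts autophagosome formation, was at 214, 193, 194 and 191 against 387, 311, 451 and 345 (0.90 ± 0.18, adjusted p = 0.0452). Both groups were apart with narrow wild-type ranges. The prostaglandin F receptor gene Ptgfr was at 734, 620, 738 and 795 against 176, 458, 281 and 338 (-1.28 ± 0.25, adjusted p = 0.0427), Emb at 1964 to 2876 against 1288 to 1575 (-0.77 ± 0.15, adjusted p = 0.0378), and Prss35 at 899 to 1519 against 149 to 631 (-2.37 ± 0.39, adjusted p = 0.0269). Of these, Ptprg, Atg14, Emb and Ptgfr fall outside the naming rule and are given for their sites.

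Of 20 published targets of miR-9-5p 0 rose and 1 fell, with 3 higher and 3 lower at an unadjusted p under 0.05 and a median of 0.00. The called gene was Cdh2, which encodes N-cadherin, at 491, 448, 768 and 738 in A to D and at 324, 314, 235 and 184 in E to H (-1.20 ± 0.25, adjusted p = 0.0457).

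Among called genes in none of the lists, the naming rule took those with the largest change. Galnt15, which starts mucin-type sugar chains, was at 1723, 1106, 626 and 280 in A to D and at 12911, 2708, 7985 and 10738 in E to H (3.28 ± 0.56, adjusted p = 0.0315). Apod, a small lipid carrier, was at 9906, 4307, 13360 and 5362 against 65492, 14909, 31210 and 66546 (2.34 ± 0.49, adjusted p = 0.0495). The groups were apart, and F was again the lowest deficient mouse. Cdo1, which breaks down cysteine, was at 277 to 443 against 3966, 808, 1484 and 2033 (2.32 ± 0.39, adjusted p = 0.0285). Adh1, an alcohol and retinol dehydrogenase, was at 269, 57.0, 123 and 97.7 against 641, 334, 671 and 1090 (2.42 ± 0.45, adjusted p = 0.0373), and Inmt, a methyltransferase, at 30.1 to 375 against 2411, 398, 2193 and 2148 (3.67 ± 0.75, adjusted p = 0.0457). In Inmt F lay close to the highest wild-type library, far below E, G and H.

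On the lower side, Spon2, a secreted matrix protein of the spondin family, was at 2260, 2457, 1612 and 2164 in A to D and at 47.0, 710, 220 and 61.4 in E to H (-3.83 ± 0.67, adjusted p = 0.0351). The calcium channel subunit genes Cacna2d2 and Cacna2d3 both fell, the first from 97.1 to 164 in wild-type to 12.9, 40.0, 34.0 and 14.6 (-2.39 ± 0.45, adjusted p = 0.0373), the other from 52.7 to 116 to 7.04, 15.5, 9.15 and 26.3 (-2.59 ± 0.53, adjusted p = 0.0455). Lair1, an inhibitory receptor for collagen on leukocytes, was at 93.0, 249.9, 120 and 81.2 against 18.8, 7.73, 32.7 and 17.5 (-2.77 ± 0.52, adjusted p = 0.0373). It lay low in all deficient mice, F lowest.

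The osteoblast libraries of the same animal numbers were set beside the MSCs. Each of those 8 libraries held both Xist (3720 to 8053 normalized counts) and Ddx3y (649 to 1939), so their RNA may not come from 1 mouse alone. The medians there were 0.61 for glucocorticoid-induced genes, -1.92 for fibrillar collagens, -1.09 for bone matrix, -0.11 for reticulum chaperones, -0.14 for interferon response and -0.30 for B-lineage genes. Of 15556 genes tested for a difference of the genotype effects between the cell types 2 passed (0.0129%), Psmb9 and Lrrc66. Lrrc66 was at 0 reads in all wild-type MSC libraries and at 7.04, 7.73, 6.54 and 18.996 normalized counts in E to H, and at 22.0 to 28.6 in wild-type against 6.76 to 13.2 in deficient osteoblast libraries (adjusted p = 0.0423). Its MSC values were near the limit of 3 reads. For the lists above, the side-by-side medians are therefore a description, and among their members a difference between the cell types passed for Psmb9 alone, and not in the alternatives named beside it.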

How the data were processed

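Sorted MSCs and osteoblasts labelled with 8 animal numbers gave 16 poly(A) RNA-seq libraries. The 8 of MSCs are analysed here, with the osteoblast libraries used for the difference of effects. The deposited signal values are normalized counts per gene symbol. After multiplying each library by its own constant, 100% of values were whole within 0.01, and they are read here as counts that the authors divided by size factors. Per the submitters' processing notes DESeq2 1.24.0 and mm10 were used. For the aligner, the counting program and its strand setting: not given in the sources used here.

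Values were tested as log2(normalized count + 1) with limma 3.58.1 (empirical Bayes with trend, R 4.3.3) without covariates, on genes with 10 or more in at least 4 of 8 libraries. Genes with a Benjamini-Hochberg adjusted p under 0.05 over all genes tested passed. The difference of effects was an interaction term over 16 libraries. The p-values measure the spread between these libraries, and 4 mice per group limit the precision. Whole reads were recovered for edgeR 4.0.16 and DESeq2 1.42.0, which were alternatives beside a pseudocount of 5, filters, quantile and TMM scaling, array weights, covariates and leaving out libraries. The code was tested on simulated data. Floors of 3 reads cover counting error at 95% confidence.

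The members and gene lists were chosen with earlier results of these data known, and lists are described by counts and medians without a test. The naming rule took, per direction, the 15 called genes with the largest change, no overlap and a mean of 50 or more, then up to 4 called members per direction of each list (or the 2 smallest p), and factors fixed by name. It gave 220 genes, a part of which is printed (picked for length with the values known), and genes outside it are marked. Some genes that the rule named are not reported here. Sequences are from RefSeq GRCm38.p6 tables, and 3′ UTR positions from GENCODE annotation of GRCm38. Of the 14964 tested genes, 11023 matched a RefSeq promoter window and 13466 an annotated 3′ UTR.

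No animal number occurs in both genotypes, so the MSC libraries were not paired. The numbers fall into series that span the genotypes, whose meaning the labels do not give, and a fit with the series as a covariate was an alternative (8 calls). Between cell types the numbers were taken to name the same mice, which the Xist and Ddx3y levels of the osteoblast libraries put in doubt. The alternative was a fit in which the animal number was a replicate block (correlation 0.142).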

Additional observations from a re-analysis of the deposited data

Results flagged for a closer look

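In groups of 4 libraries, a library was marked when its distance to the nearest of the others was a larger part of the group's range than Dixon's critical value at 95%, which chance gives in about 1 of 20 groups. Of 296 groups looked at, over genes and lists of the text, 20 were marked. That share is only slightly above the 1 of 20 groups that chance gives. The groups share the same 8 libraries and are not independent, and the genes were picked with their values known. The marks below are therefore a description of single values, and whether any of them exceeds chance was not tested.

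Deficient mouse F stood apart from E, G and H for Txnip (10708 normalized counts), Inmt (398), Rps27 (3637), Scd2 (3947) and Srebf2 (3043), each time on the side of the wild-type mice. Wild-type mouse D stood apart for Col11a2 (28523), Smpd3 (2242), Srebf2 (3665) and Txnip (3697). The values of D for Srebf2, Smpd3 and Col11a2 were the highest of all 8 libraries and its Txnip the lowest.

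Wild-type mouse B stood apart for Sesn1 (1056), for Hspa5 (26389), and for the mean log2 level of the ribosomal proteins of the large (0.0485) and the small subunit (0.0643) relative to the wild-type mean. Deficient mouse H stood apart for Cebpa (418), Mvk (129) and Lrrc66 (18.996), and deficient mouse E for Col11a2 (882) and Cpz (97.4). Wild-type mouse A was the high library for Atg14 (214) and Gstm1 (1296). For Atg14 and Gstm1 every deficient library remained on 1 side of all wild-type libraries.

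The genotype effect differed between osteoblasts and MSCs, by the limma interaction term, in Psmb9 (difference 1.51, adjusted p = 0.0423) and Lrrc66 (difference -4.63, adjusted p = 0.0423, a fitted value that depends on the pseudocount because all wild-type MSC libraries held 0 reads). Psmb9 was lower in 4 of 4 deficient MSC libraries than in any wild-type one. With a pseudocount of 5 neither gene passed.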

How the results depend on the processing

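All 159 calls kept their direction in every alternative in which they were tested, which their selection in these same libraries made likely. The number of calls was between 142 and 197 under another pseudocount, no filter, a filter of 50, quantile or TMM scaling and edgeR. With all libraries in the fit the share of calls that were higher moved from 47.2% to 59.2% of 147 with edgeR and 57.5% of 1199 with DESeq2, and it was 27.3% of 11 without E and 100% of 1 without D or without G. Array weights gave 1714 calls and all 16 libraries in 1 fit 2246. The muscle level as covariate gave 0, the B-lineage level, which does not overlap between the genotypes, 0, the series of animal numbers 8, leaving out G and H 0, and the Xist level, chosen after the data were seen, 51. Leaving out 1 library at a time gave 0 (wild-type B) to 2261 (deficient F). The cause was not tested. The difference of effects gave 0 calls at a pseudocount of 5 and 1 with a filter of 50, and leaving out 1 mouse gave 0 to 128, the highest without F. With the animal number as a replicate block, a pairing of the cell types, it gave 3 calls in place of 2, Cxcl13 being added.

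The B-lineage covariate turned the sign of Nr3c1 (0.23), Runx2 (0.15), Notum (0.14), Cebpa (0.23), Xbp1 (0.0664) and Cd74 (0.69). Cebpa was also 0.0336 with the muscle covariate, 0.0328 without G and H, and -0.311 to 0.00505 with 1 library left out. With 1 library left out Cxcl12 ran from -0.738 to 0.0252 and Sox9 from -0.403 to 0.0363. None of these had passed. Of 83 lists 57 kept the sign of their median in all 22 alternatives, and of 1826 list medians 63 moved by more than the spread between libraries. Of 2956 gene values under alternatives 1914 kept direction and side of the threshold, 892 were no longer past it, 139 newly passed and 11 changed sign.

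Depth limits the low genes: 3 reads are 3.52 to 4.51 normalized counts. With 4 mice per group a gene that did not pass may still differ. Muscle reads in G and H, and the unequal X- and Y-linked levels, cannot be fully told apart from genotype with 4 libraries a group. In G and H they also coincide with each other.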
